A study of Mus musculus with 7 samples.

Results

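The transcription factor circuit around ATF4 and CHOP was examined in quadriceps femoris muscle of mice with a mutant Twinkle transgene. It was taken as 10 genes, namely Atf4, Atf5, Atf3, Ddit3 (which encodes CHOP), Trib3, Cebpb, Cebpg, Chac1, Nupr1 and Sesn2. Every probe set annotated to 1 of these symbols was used, which gave 19 of the 45101 probe sets in the array table and covered all 10 genes. Atf4 and Cebpg had 3 probe sets each, Ddit3, Trib3, Cebpb, Nupr1 and Sesn2 had 2, and Atf5, Atf3 and Chac1 had 1. The members were chosen by name, with earlier results of these data known.

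ATF4 is the factor at the centre of the integrated stress response. Kinases that sense amino acid shortage, unfolded protein, viral RNA or loss of haem phosphorylate the initiation factor eIF2, general translation falls, and the ATF4 messenger is translated more. ATF4 binds DNA as a dimer with C/EBP proteins and raises genes of amino acid supply together with further factors, among them CHOP, ATF3 and ATF5. TRIB3, CHAC1, NUPR1 and sestrin 2 lie downstream. In muscle with defective mitochondria this response is known to be switched on, and it drives the hormone FGF21. Because ATF4 is controlled mainly at translation, the amount of its messenger is a different quantity from its activity, and arrays measure only the messenger.

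Muscle was compared between 3 mice that overexpressed mutant Twinkle and 4 wild-type mice, with 1 single-colour Affymetrix array per sample. Twinkle unwinds mitochondrial DNA as a helicase, and mutations in its gene cause progressive external ophthalmoplegia. The mutant mice were 24, 24 and 21 months old for replicates 1 to 3, and the wild-type mice 26, 24, 21 and 23 months for replicates 1 to 4. The promoter of the transgene, the strain and any pooling of animals are not given in the sources used here. In bulk muscle, fewer cells of a type and less RNA per cell cannot be told apart. The values are log2 values of each probe set relative to its own median over the 7 arrays. They show how arrays differ. Only a rough level class (log2 of 2 to 4, 4 to 8 or 8 to 16 on the lowest array) could be read, from the spacing of the numbers, so genes are not ranked by abundance.

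The samples' free-text descriptions name cerebellum, while titles, source and tissue entries name quadriceps. The level classes put 10 of 10 muscle fibre markers in the highest class and 0 of 9 measured cerebellum markers there. Twnk, the gene of the transgene, had 1 probe set, at -0.15, 0.44 and 0.00 in mutant and at -0.14 to 0.34 in wild-type muscle, a log2 difference of 0.04 ± 0.18 (SE). The sources used here do not say whether that probe set detects the transgene. Over all probe sets tested, 3 arrays stood apart from the other 4, and each set held both genotypes. These 3 arrays were mutant replicate 2 and wild-type replicates 1 and 4, whose values correlated with each other at Pearson r of 0.36 to 0.49 across probe sets and with the other 4 arrays at -0.48 to -0.16. The labels name no batch that matches this split. The 18S ribosomal RNA control averaged 3.19 in mutant replicate 1 and -0.77 to 0.56 elsewhere. For Gapdh, the gap between the 5 prime and 3 prime control probe sets was -0.55 in wild-type replicate 3, against -0.04 to 0.09 elsewhere. For actin, wild-type replicate 3 did not stand apart, at 0.12 against -0.14 to 0.12 elsewhere. Where arrays are said below to stand apart in RNA controls, mutant replicate 1 is meant for 18S and wild-type replicate 3 for Gapdh. Slow fibre genes averaged -3.02 and -1.86 in wild-type replicates 1 and 2 and -0.08 to 0.64 in the other 5 arrays.

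RefSeq promoters (assembly GRCm38.p6) were read for all 10 genes, from 250 bases before to 50 bases after the start, 11 windows in all because Atf5 has 2. ATF4 and C/EBP dimers bind a composite site, the C/EBP-ATF response element, searched as TGATGCAA on both strands. Atf3, Chac1 and Nupr1 held it, which is 3 of 11 windows, while 0.895% of all 32851 promoter windows did. The 3 matches are shown because these genes carry the letters of the circuit's own site close to the start. Capitals mark the element, which lies on the opposite strand to the gene and reads TTGCATCA along it.
Atf3, GRCm38.p6 chr1:191183386-191183493, minus strand, bases -160 to -53 from the start: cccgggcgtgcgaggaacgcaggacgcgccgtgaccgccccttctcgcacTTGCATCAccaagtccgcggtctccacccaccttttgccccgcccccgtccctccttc
Chac1, GRCm38.p6 chr2:119350999-119351106, plus strand, bases -243 to -136: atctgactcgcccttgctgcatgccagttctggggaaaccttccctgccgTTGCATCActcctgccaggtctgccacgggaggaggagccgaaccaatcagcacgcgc
Nupr1, GRCm38.p6 chr7:126625523-126625630, minus strand, bases -160 to -53: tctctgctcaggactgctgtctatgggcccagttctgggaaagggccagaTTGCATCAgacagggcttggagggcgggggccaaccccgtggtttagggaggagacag

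The element began at base -110 from the start in both Atf3 and Nupr1, and at base -193 in Chac1. A relaxed form, TGATGNAA, includes every TGATGCAA match and added Trib3 at bases 15 to 22 after the start, for 4 of 11 windows against 3.97% of all. The cAMP response element TGACGTCA and the C/EBP palindrome TTGCGCAA were in 0 of the 11 windows, against 1.79% and 0.183% of all. The AP-1 letters TGANTCA were in the Ddit3 window alone among the 11, against 7.81% of all. That window is shown with the AP-1 letters in capitals because Ddit3 encodes CHOP and held none of the other letters searched.
Ddit3, GRCm38.p6 chr10:127290543-127290607, plus strand, bases -250 to -186: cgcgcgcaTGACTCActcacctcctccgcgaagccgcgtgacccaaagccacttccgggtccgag

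A match says only that these letters stand in the window, and windows without one can hold sites elsewhere. Among genes known as ATF4 targets, TGATGCAA was in 4 of 19 amino acid genes with a window (Got1, Pycr1, Slc1a4 and Slc7a11). It was in 4 of 9 tRNA synthetase genes (Aars, Iars, Tars and Yars) and 4 of 14 other ATF4 or CHOP targets (Fgf21, Herpud1, Jdp2 and Vldlr). In the remaining lists it was in 0 of 8 CHOP targets, 0 of 17 genes upstream of ATF4, 0 of 16 mTORC1 genes and 0 of 16 immediate early genes. ATF6 and XBP1 genes held it in 1 of 21 (Herpud1) and relatives of the members in 1 of 17 (Jdp2).

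**Figure D1:**
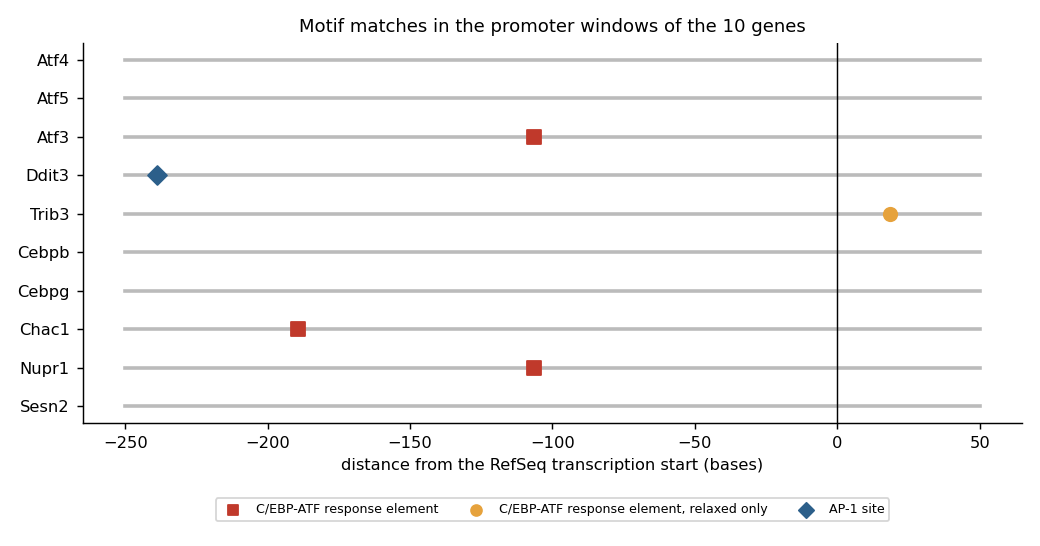
Positions of motif matches (x axis, bases from the RefSeq start at 0) in the promoter windows of the 10 genes, 1 grey line per gene from -250 to 50. Red squares mark the C/EBP-ATF response element in Atf3, Chac1 and Nupr1, the orange circle the relaxed form in Trib3, and the blue diamond the AP-1 letters in Ddit3.

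Between mutant and wild-type muscle, no probe set of the circuit passed the test. With limma on all 45037 probe sets other than controls, 0 of the 19 had an adjusted p under 0.05, as did 0% of all probe sets tested. At an unadjusted p under 0.05 there was 1 of the 19, a Trib3 probe set, against 1.98% of all. Measured differences lay above 0 in 17 of the 19, where 47.4% of all probe sets did, with a median of 0.17 on the log2 scale against -0.01 over all probe sets. All probe sets of 8 genes had positive differences, Atf3 had a negative one, and the 2 of Cebpb differed in sign. Probe sets of a gene share their source, so the 17 are not 17 separate observations. The groups overlapped in all 19, so 0 of the 19 separated the genotypes, against 2.08% of all probe sets. Some marker lists also lay to one side. Above 0 were 9 of 10 endothelial (median 0.19), 9 of 10 slow fibre (median 1.22) and 0 of 8 adipocyte markers (median -0.19). Others were more even, with 5 of 9 leukocyte, 5 of 9 fibroblast, 5 of 10 satellite cell, 6 of 10 fast fibre and 3 of 5 erythroid markers. The rest had 8 of 10 muscle fibre, 2 of 7 nerve and 3 of 9 cerebellum markers above 0. The part of these cell types in the circuit values was not tested. Within the 4 arrays that did not stand apart, which hold 2 mutant and 2 wild-type arrays, 11 of the 19 differences were above 0 and their median was 0.07.

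**Figure D2:**
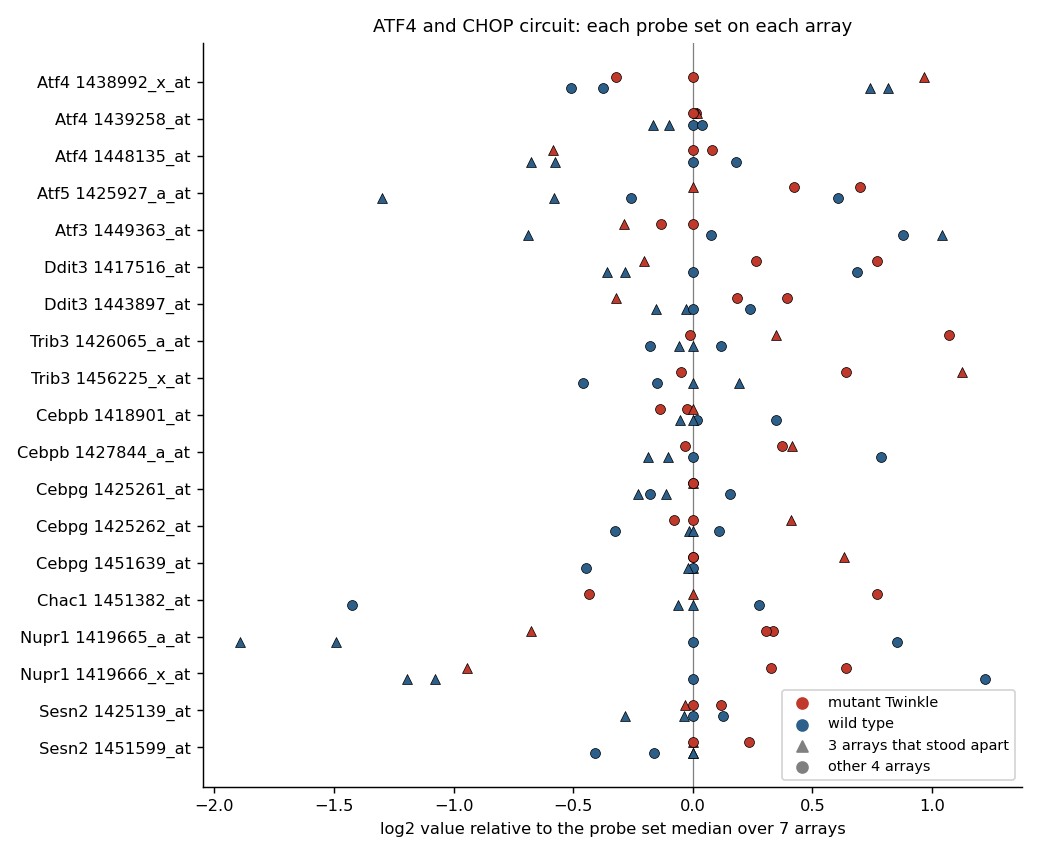
Log2 value, centred on the probe set's own median (x axis), for the 19 probe sets of the 10 genes (rows), with mutant arrays in red and wild-type arrays in blue. Triangles are the 3 arrays that stood apart and circles the other 4. Red and blue points overlap in every row, and the triangles fall together on the left for Nupr1 and on both sides for Atf4.

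Atf4 itself showed no shift between genotypes that its 3 probe sets shared beyond the spread. The probe set in the highest level class, 1448135_at, lay at 0.08, -0.59 and 0.00 in mutant replicates 1 to 3 and at -0.68, 0.18, 0.00 and -0.58 in wild-type replicates 1 to 4. Mutant replicate 2 and wild-type replicates 1 and 4 were low and the other 4 arrays near 0, so the low values belonged to the arrays that stood apart and included both genotypes. The difference was 0.10 ± 0.26 (SE), with a 95% confidence interval of -0.52 to 0.71. In probe set 1438992_x_at the same 3 arrays were high, at 0.97, 0.81 and 0.74, and the other 4 lay between -0.51 and 0.00. A pair of probe sets annotated to a single gene thus went in opposite directions across the same arrays. Whether each of them reads Atf4 alone was not tested. The genotype difference was 0.05 ± 0.44 in 1438992_x_at and 0.07 ± 0.08 in 1439258_at, which varied little over the arrays (-0.16 to 0.04). The interval of 1439258_at ran from -0.12 to 0.26.

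Nupr1 followed the same array split with the widest range of the circuit. NUPR1 is a small stress-induced chromatin protein downstream of ATF4. Probe set 1419665_a_at measured 0.34, -0.68 and 0.31 in mutant muscle, against -1.89, 0.00, 0.86 and -1.49 in wild-type muscle. Its second probe set, 1419666_x_at, gave 0.64, -0.95 and 0.33 against -1.19, 0.00, 1.22 and -1.08. In both, the 3 arrays that stood apart were the lowest, and wild-type replicate 3 was the highest of the 7. The genotype differences were 0.62 ± 0.67 and 0.27 ± 0.65, within the spread. For 1419665_a_at leaving out wild-type replicate 1 gave 0.20 and leaving out wild-type replicate 3 gave 1.12. In the other 4 arrays alone they were -0.11 and -0.13. Wild-type replicate 3 also had the highest mean of the 9 measured leukocyte markers (0.70), and wild-type replicates 1 and 4 the lowest (-0.44 and -0.37). It was the highest array for 9 fibroblast markers (1.06) and for 8 adipocyte markers (1.08) as well, and wild-type replicate 1 was the lowest for the adipocyte markers (-0.83). Leukocyte means ran from -0.11 to 0.26 in mutant and from -0.44 to 0.70 in wild-type arrays, fibroblast means from -0.09 to 0.79 and -0.27 to 1.06, and adipocyte means from -0.22 to -0.01 and -0.83 to 1.08. The part of these cell types in the Nupr1 values was not tested.

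Of the 19 probe sets, 7 separated the 3 arrays from the other 4, against 17.4% of all probe sets. The arrays were divided on values that include these, so the count is a description. It comprised 6 that were lower in the 3 arrays (both of Nupr1, both of Ddit3, 1 of Atf4 and 1 of Sesn2) and 1 that was higher (Atf4). The gap between set means was -1.73 and -1.62 for Nupr1, -0.71 and -0.37 for Ddit3, -0.18 for Sesn2 and -0.68 and 1.14 for the Atf4 pair.

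**Figure D3:**
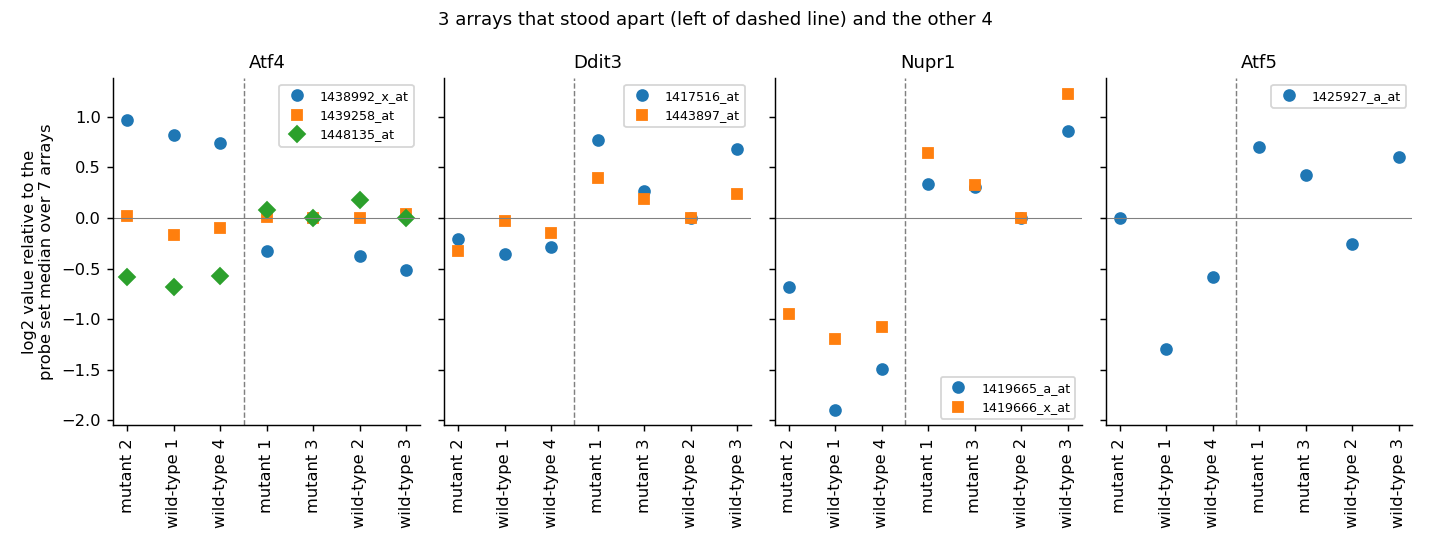
Log2 value, centred on the probe set's own median (y axis), for Atf4, Ddit3, Nupr1 and Atf5 on the 7 arrays (x axis), with the 3 arrays that stood apart left of the dashed line and 1 symbol per probe set. Atf4 probe sets 1438992_x_at and 1448135_at move in opposite directions, and Nupr1 and Ddit3 are lower on the left.

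Ddit3, which encodes CHOP, a factor that carries prolonged stress towards cell death, had 2 probe sets that moved alike. Probe set 1417516_at lay at 0.77, -0.20 and 0.26 in mutant and at -0.36, 0.00, 0.68 and -0.28 in wild-type muscle. Mutant replicate 1 and wild-type replicate 3 were the high arrays. The difference was 0.27 ± 0.31 (SE), or 1.20-fold, with an interval of -0.46 to 0.99. Probe set 1443897_at gave 0.39, -0.32 and 0.18 against -0.03, 0.00, 0.24 and -0.15, a difference of 0.07 ± 0.18. Mutant replicates 1 and 2 were its highest and lowest arrays, so the mutant range enclosed the wild-type range. Leaving out mutant replicate 1, the array with the high 18S control, gave -0.08 in 1443897_at and 0.02 in 1417516_at. For 1417516_at, the difference was 0.51 without mutant replicate 2 and 0.49 without wild-type replicate 3.

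Atf5, a factor tied to the mitochondrial unfolded protein response, had the largest measured difference of the 19 probe sets, 0.76 ± 0.42 or 1.69-fold, and did not pass (limma unadjusted p = 0.110, adjusted p = 1.00). It measured 0.70, 0.00 and 0.42 in mutant and -1.30, -0.26, 0.61 and -0.58 in wild-type muscle. All 3 mutant arrays lay at or above 0, 3 of the 4 wild-type arrays lay below it, and wild-type replicate 3 lay among the mutant values. Among the 3 arrays that stood apart (mutant replicate 2 alone against wild-type replicates 1 and 4) Atf5 differed by 0.94, and among the other 4 by 0.39. Without both wild-type arrays low in slow fibre genes it was 0.36. Leaving out each array in turn gave 0.45 (without wild-type replicate 1) to 1.09 (without wild-type replicate 3, limma unadjusted p = 0.0109, adjusted p = 1.00).

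Atf3, a stress factor that also answers to mechanical and inflammatory signals, measured lower in mutant muscle without passing. It lay at -0.14, -0.29 and 0.00 in mutant and at 1.04, 0.88, 0.08 and -0.69 in wild-type muscle, a difference of -0.47 ± 0.40. Wild-type arrays held both the highest values (replicates 1 and 2) and the lowest (replicate 4), and the mutant arrays lay between them. The 2 high arrays are those with the low slow fibre means of -3.02 and -1.86. Without both of them the difference was 0.16. Without wild-type replicate 4 it was -0.81 (limma unadjusted p = 0.0206, adjusted p = 1.00), and leaving out single arrays gave -0.81 to -0.23. Immediate early genes, which share inducers with Atf3, averaged -0.32 and 0.18 in these arrays and -0.55 in wild-type replicate 4. Whether fibre composition or immediate early induction bears on the Atf3 values was not tested.

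C/EBP-beta and C/EBP-gamma are leucine zipper partners of ATF4 and CHOP, and C/EBP-gamma is known as a partner of ATF4 at amino acid genes. Cebpb probe set 1418901_at, in the highest level class, lay at -0.02, 0.00 and -0.14 in mutant and at -0.05, 0.35, 0.02 and 0.00 in wild-type muscle, a difference of -0.13 ± 0.12. Probe set 1427844_a_at gave 0.37, 0.42 and -0.03 against -0.19, 0.79, 0.00 and -0.11, a difference of 0.13 ± 0.25. Wild-type replicate 2 was the highest array in both. The 3 Cebpg probe sets gave differences of 0.09 ± 0.11, 0.17 ± 0.15 and 0.33 ± 0.19. The first, 1425261_at, is in the lowest level class (2 to 4), and its 3 mutant arrays all stood at exactly 0. For 1451639_at, the last of the 3 probe sets, 4 arrays stood at exactly 0, mutant replicate 2 at 0.63 and wild-type replicate 2 at -0.45. These 2 arrays hold most of the spread of 1451639_at. Without mutant replicate 2 it was 0.12.

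Trib3 came nearest to a difference among the members. TRIB3 is a pseudokinase that ATF4 and CHOP induce and that restrains them in turn. Probe set 1456225_x_at measured 0.64, 1.12 and -0.05 in mutant and 0.00, -0.46, -0.15 and 0.19 in wild-type muscle. It is in the lowest level class (2 to 4), and whether it reads Trib3 alone was not tested. Mutant replicates 1 and 2 lay above every wild-type array and mutant replicate 3 within their range. The difference was 0.68 ± 0.28 (SE), or 1.60-fold, with a 95% confidence interval of 0.02 to 1.33 (limma unadjusted p = 0.0453, adjusted p = 1.00, exact permutation p = 0.143). Probe set 1426065_a_at, of a higher level class (4 to 8 against 2 to 4), gave 1.07, 0.35 and -0.01 against -0.06, -0.18, 0.12 and 0.00, a difference of 0.50 ± 0.24 or 1.41-fold (limma unadjusted p = 0.0726, adjusted p = 1.00, exact permutation p = 0.0857). The same 2 mutant arrays were above all wild-type arrays. The smallest p that the exact two-sided permutation test over 35 splits can give is 0.0286. The limma unadjusted p of 1456225_x_at lay above 0.05 when mutant replicate 1 (0.112) or 2 (0.161) was left out, and when wild-type replicate 1 (0.0661), 2 (0.111) or 3 (0.0843) was left out. It was also above 0.05 with quantile normalization (0.0560) and with the replicate block (0.0667). The same held without both wild-type arrays low in slow fibre genes (0.198) and without both arrays that stood apart in RNA controls (0.180). It stayed under 0.05 with a robust prior (0.0464), with age as a covariate (0.0343) and with array set as a covariate, chosen after seeing the data (0.00522). Leaving out mutant replicate 3 (0.00423) or wild-type replicate 4 (0.0432) also kept it under 0.05. No adjusted p of a member under any alternative fell below 0.81. Without mutant replicate 1, whose 18S control was high, the difference was 0.20 in 1426065_a_at and 0.64 in 1456225_x_at. Without mutant replicate 2 it was 0.56 and 0.40. Trib3 differences stayed positive in both probe sets with array set as a covariate (0.49 and 0.77). They were also positive within each array set, at 0.56 and 0.60 in the other 4 arrays and at 0.38 and 1.03 in the 3. In the other 4 arrays the limma unadjusted p was 0.249 for 1426065_a_at and 0.108 for 1456225_x_at. The 3 compare mutant replicate 2 alone with wild-type replicates 1 and 4.

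Chac1, the enzyme that breaks down glutathione on induction by ATF4, varied widely within both groups. It measured -0.44, 0.00 and 0.77 in mutant and 0.00, 0.28, -1.43 and -0.06 in wild-type muscle. Mutant replicate 3 was the highest array and wild-type replicate 3 the lowest. The difference was 0.41 ± 0.45. It was 0.04 without wild-type replicate 3, 0.09 without mutant replicate 3, 0.69 without mutant replicate 1 and 0.86 without both wild-type arrays low in slow fibre genes. Sesn2, a sensor that lowers mTORC1 signalling when leucine is scarce, lay within -0.28 to 0.13 over all arrays in 1425139_at. That probe set is in the lowest level class (2 to 4), so its narrow range is not read as stable expression. The other Sesn2 probe set, 1451599_at, stood at exactly 0 in 4 arrays, at 0.24 in mutant replicate 1 and at -0.16 and -0.41 in wild-type replicates 2 and 3. The differences were 0.08 ± 0.11 and 0.22 ± 0.13, with intervals of -0.19 to 0.34 and -0.08 to 0.52. Both upper bounds of Sesn2 lay under those of Nupr1 (2.19 and 1.79).

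**Figure D4:**
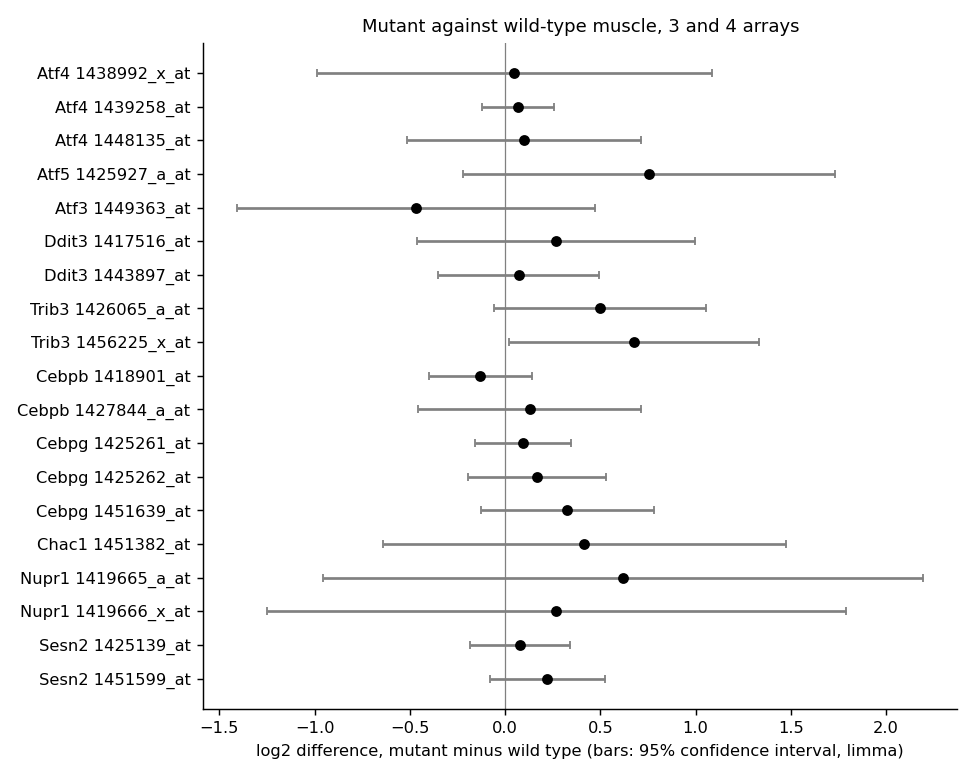
Log2 difference, mutant minus wild type (x axis), for the 19 probe sets (rows), with points for the limma estimate from 3 mutant and 4 wild-type arrays and bars for the 95% confidence interval. Bars cross 0 in 18 of 19 rows, the exception being Trib3 1456225_x_at, and are widest for the 2 Nupr1 probe sets.

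The 3 genes that carry the response element near the start did not share a pattern over the arrays. Atf3 was highest in wild-type replicate 1 (1.04), where Nupr1 was lowest (-1.89 and -1.19). Nupr1 was highest in wild-type replicate 3 (0.86 and 1.22), where Chac1 was lowest (-1.43).

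The wider ATF4 programme was measured through lists of known targets, with 1 value per gene. Of 18193 genes, 0% passed at an adjusted p under 0.05, 1.38% had an unadjusted p under 0.05 and 46.5% a difference above 0, with a median of -0.01. None of the lists below held a gene past the threshold. Some genes, such as Ppp1r15a, Herpud1 and Cebpd, stand in more than 1 list, so the list counts are not separate. Among 23 measured genes of amino acid synthesis and transport, 17 lay above 0, with a median of 0.06, and 2 had an unadjusted p under 0.05. Mthfd2, the mitochondrial folate enzyme, measured 2.00, 0.94 and 0.46 in mutant and -0.58 to -0.14 in wild-type muscle, a difference of 1.52 ± 0.33. Psat1 of serine synthesis differed by 0.53 ± 0.20 and the transporter Slc7a5 by 0.68 ± 0.30. Both were 0.00 or lower in mutant replicate 3, the array in which Trib3 also lay within the wild-type range.

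Of 14 measured tRNA synthetase and tRNA export genes, 12 lay above 0, with a median of 0.17 and none at an unadjusted p under 0.05. Aars differed by 0.23 ± 0.12 and Sars by 0.19 ± 0.13. Among 16 other ATF4 or CHOP targets 13 lay above 0, with a median of 0.14. Of the 16, 3 had an unadjusted p under 0.05, 2 of them above 0. Fgf21, the hormone that muscle releases under this response, measured 2.03, 0.93 and 0.83 in mutant and -0.43 to 0.00 in wild-type muscle, a difference of 1.48 ± 0.29. Cdkn1a, the cell cycle inhibitor p21, gave 0.30, 0.30 and 0.44 against -0.72 to 0.00, a difference of 0.87 ± 0.19. Cebpd, a relative of Cebpb, went the other way at -0.57 ± 0.23.

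Genes known as CHOP targets in death and protein folding were mixed, with 6 of 10 above 0 and a median of 0.05. Dapk3, a death-associated kinase, differed by 0.46 ± 0.17 and Tnfrsf10b, a death receptor, by -0.28 ± 0.14. The 2 probe sets of Dapk3 differed in sign, at -0.06 and 0.46. Upstream of ATF4, 14 of 20 kinase, phosphatase and eIF2 genes lay above 0, with a median of 0.09. Oma1, the inner membrane protease that signals mitochondrial stress, differed by 0.26 ± 0.13, and Gcn1, the activator of the amino acid sensing kinase, by 0.24 ± 0.13. The 5 probe sets of Gcn1 ran from -0.20 to 0.24, so its gene value rests on the highest of them.

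The ATF6 and XBP1 branches of the endoplasmic reticulum response, which do not run through ATF4, had 7 of 24 genes above 0, a median of -0.03 and 0 at an unadjusted p under 0.05. Their smallest p-values were those of Atf6 at 0.15 ± 0.11 and Sec61b, a translocon subunit, at -0.27 ± 0.22. Herpud1 of this list was also counted with the other ATF4 or CHOP targets, and Dnajc3 with the genes upstream of ATF4. In the mTORC1 pathway on which sestrin 2 acts, 12 of 17 genes lay above 0, with a median of 0.06. Rraga, a GTPase that recruits mTORC1 to the lysosome, differed by 0.53 ± 0.26 and Tsc2, an inhibitor of mTORC1, by 0.22 ± 0.13. Relatives of the members (ATF, C/EBP, tribbles, sestrin and other leucine zipper genes) had 5 of 20 above 0 and a median of -0.06, with Cebpd as above and Sesn3 at 0.29 ± 0.13.

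Immediate early genes lay above 0 in 18 of 21, with a median of 0.06 and 2 at an unadjusted p under 0.05, while Atf3, which is induced with them, had a difference of -0.47. Junb, an AP-1 subunit, measured 0.49, 0.17 and 0.15 in mutant and -0.49 to 0.00 in wild-type muscle, a difference of 0.54 ± 0.15. Egr1, a zinc finger factor, differed by 1.27 ± 0.48. The list means were 0.22, -0.12 and 0.11 in mutant and -0.32, 0.18, 0.18 and -0.55 in wild-type arrays, with the 3 arrays that stood apart again the lowest.

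**Figure D5:**
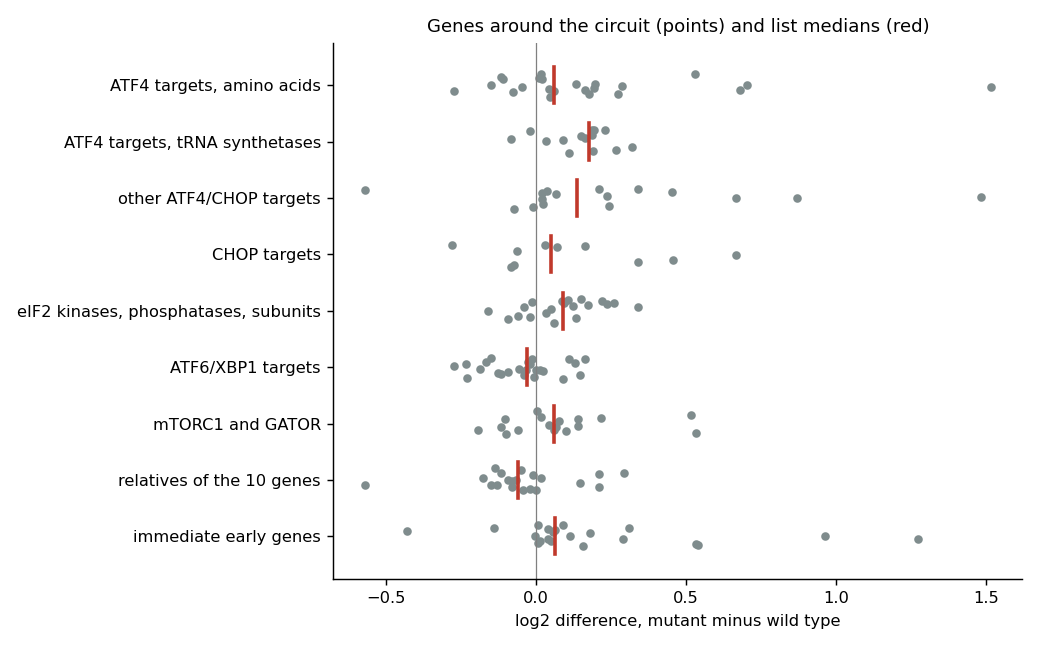
Log2 difference, mutant minus wild type (x axis), of each measured gene (grey points, spread vertically for visibility) in 9 lists around the circuit (rows), with the list median as a red line. Medians run from -0.06 for relatives of the members to 0.17 for tRNA synthetases, and Fgf21 and Mthfd2 lie farthest right.

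Likeness to 3 named members was described by the root-mean-square difference over the 7 arrays, in log2 units. The genes closest to Atf4 (its 1448135_at values) were Iscu at 0.035, Gatd3a at 0.060 and Hsd17b10 at 0.077, where the median gene was at 0.42. All 3 were low in the arrays that stood apart, at -0.79 to -0.51. Closest to Ddit3 were Uchl1 at 0.094, 1810018F18Rik at 0.099 and Tmem217 at 0.11, where the median gene was at 0.34. Wfdc21 at 0.16, Slc4a1 at 0.20 and the cationic amino acid transporter Slc7a3 at 0.20 were closest to Trib3, where the median gene was at 0.47. These 3 were highest in mutant replicate 1, at 0.98, 1.34 and 0.77.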

How the data were processed

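The deposited table held log2 values for 45101 probe sets on 7 arrays, centred by the authors on each probe set's median. The centring and the log base are read from the values (all 45101 medians were exactly 0; the number spacing is that of values from 2 to 16). Per the submitters' processing notes GCOS 4.0 was used; summary method and scaling are not given in the sources used here. Exact ties at 0 on at least 2 arrays occurred in 25454 probe sets. Symbols came from the platform annotation, updated by Entrez identifier to RefSeq GRCm38.p6 (34754 of 34958 probe sets with 1 symbol matched; 932 had several and 9211 none). The 64 control probe sets were left out.

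All other probe sets were fitted with limma 3.58.1 in R 4.3.3 (lmFit, eBayes; two-sided, no covariate, no filter), with Benjamini-Hochberg adjustment over all 45037 and a threshold of 0.05. For gene lists, probe sets of a gene that shared its highest level class were averaged, and the 18193 genes were fitted. The class is that of the lowest array and is approximate. Alternatives were 2 gene-level summaries, quantile normalization, a robust prior, a level filter, age or replicate number as covariates, an exact permutation test and left-out arrays. The fit was tested on simulated data with independent noise on each array. They held neither the array split nor the ties at 0, so they do not show how the fit behaves under these. Errors are limma standard errors, and array number limits the precision. The labels call the arrays biological replicates. Members, gene lists and motifs were chosen with earlier results of these data known. Named genes are all members, 2 to 4 genes per list with the smallest unadjusted p, and the 3 genes closest to Atf4, Ddit3 and Trib3. Promoter and marker lists were used as descriptions.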

Additional observations from a re-analysis of the deposited data

Results flagged for a closer look

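In Cebpg probe set 1451639_at, wild-type replicate 2 lay at -0.45, far from the other 3 wild-type arrays, which lay at -0.02 to 0.00. The gap to its nearest neighbour took up most of the range of the group. Some gaps of this kind arise without any difference, how often was not tested, and 19 probe sets were examined. Several arrays stand at exactly 0 in this probe set, which narrows the spread of the rest.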

How the results depend on the processing

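No member passed the threshold under any of the 18 alternatives fitted with limma (smallest adjusted p of a member 0.81), and 1 gene, Trib3, had an unadjusted p under 0.05 as reported. Where that count stayed at 1 the gene was not always Trib3: it was Atf5 with quantile normalization (limma unadjusted p = 0.0481), without wild-type replicate 3 (0.0109) and without both RNA-control arrays (0.0430), and Atf3 with the replicate block (0.0382). That count was 0 with gene values from the highest level class, with levels of at least 4, without both wild-type arrays low in slow fibre genes and within the other 4 arrays, 2 with array set as a covariate (Trib3 and Cebpg), and 0 to 2 when single arrays were left out (2 without wild-type replicate 4, Trib3 and Atf3). The members' median difference was 0.23 with gene values from the highest level class, 0.097 without both arrays that stood apart in RNA controls (mutant replicate 1, wild-type replicate 3), 0.067 within the other 4 arrays, and 0.092 to 0.26 when single arrays were left out. Within the other 4 arrays 11 of 19 differences lay above 0. The array set, within-set and RNA-control alternatives were chosen after seeing the data. Differences turned sign within the other 4 arrays for Atf4 1439258_at (-0.012) and 1448135_at (-0.052), Cebpb 1427844_a_at (-0.22), Nupr1 1419665_a_at (-0.11) and 1419666_x_at (-0.13) and Sesn2 1425139_at (-0.0042). With array set as a covariate they did so for Atf4 1448135_at (-0.014) and Nupr1 1419666_x_at (-0.00059). With the replicate block the same 2 turned to -0.0038 and -0.0022. Whether the replicate numbers pair the samples could not be decided. Same-number deviations correlated at -0.48, -0.31 and 0.15 for replicates 1 to 3. Replicates 1 and 2 fall in different array sets by genotype and replicates 3 in the same set, so the correlations carry the array split. Same-number mice were of equal age for replicates 2 (24 months) and 3 (21 months) but not 1 (24 and 26). The block reduced the probe sets at an unadjusted p under 0.05 from 890 to 388, with 0 past the threshold. Quantile normalization turned Atf4 1438992_x_at to -0.068. Without both arrays low in slow fibre genes Atf3 1449363_at was 0.16 and Nupr1 1419666_x_at -0.066, and without both RNA-control arrays Ddit3 1443897_at was -0.0084. The Cebpb gene value was -0.0011 as the mean of all its probe sets. From the highest class it was -0.13, which is 1418901_at alone and leaves 1427844_a_at out. Leaving out single arrays gave -0.33 to 0.32 for Atf4 1438992_x_at, -0.038 to 0.31 for Atf4 1448135_at, -0.084 to 0.27 for Ddit3 1443897_at, -0.046 to 0.76 for Nupr1 1419666_x_at and -0.0011 to 0.14 for Sesn2 1425139_at. Apart from the Cebpb gene values, which follow from the probe sets averaged, the cause of these turns was not tested.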
